A study of Mus musculus with 29 samples.

Results

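The basement membrane and type VIII collagen genes of the mouse aortic arch were the 10 genes Col4a1, Col4a2, Col4a5, Col8a1, Col8a2, Col15a1, Col18a1, Nid1, Nid2 and Hspg2. They were taken by symbol, as the measured type IV, VIII, XV and XVIII collagens together with the nidogens and perlecan, from a table of 56748 genes of which 12353 passed the filter on low counts. All 10 passed, but Col8a2 did so in only 12 of 28 libraries, and its median count was 9.5. The list was chosen by family membership and selected on the measured direction of Col8a1, which ran against most collagens in these samples. The direction of Col8a1 is therefore given throughout as a description with no test, and counts of genes that passed a test are over the other 9. The direction of most collagens was also known when the list was made. The lower direction of the collagens among these 9, and its counts beside the shares of all genes, are therefore no separate evidence.

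In GRCm39, the build of the counts, the Ensembl gene of Col4a1 (ENSMUSG00000031502) spans chr8:11248423-11362826 on the minus strand, and that of Col4a2 (ENSMUSG00000031503) chr8:11362471-11499287 on the plus strand. Col4a5 (ENSMUSG00000031274) spans chrX:140258354-140472231 and Col8a1 (ENSMUSG00000068196) chr16:57444621-57575100. Col8a2 lies at chr4:126180559-126208123, Col15a1 at chr4:47207582-47313179 and Hspg2 at chr4:137196079-137298231. Col18a1 lies at chr10:76888012-77002390, Nid1 at chr13:13612071-13686860 and Nid2 at chr14:19801298-19861855.

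The libraries were bulk RNA-seq of the aortic arch, 1 mouse each. Ercc1Δ/− mice, written Ercc1 d/- in the labels, carry a null and a hypomorphic allele of Ercc1 and age early. The ERCC1 protein joins XPF in an endonuclease complex of nucleotide excision, crosslink and double strand break repair. The alleles are present in every cell of the body. Their WT littermates (Ercc1 +/+) shared the F1 C57BL6J/FVB background and the same synthetic chow. Fed ad libitum (AL), 5 WT and 5 Ercc1Δ/− mice were taken at 6 weeks, and 4 WT and 4 Ercc1Δ/− mice at 22 weeks. A further 5 WT and 5 Ercc1Δ/− mice reached 22 weeks on 30% dietary restriction (DR), imposed after the younger age. Each group of 5 held 3 males and 2 females. At 22 weeks on AL there were 3 males and 1 female in WT, and 2 males and 2 females in Ercc1Δ/− mice. The comparisons ask what the repair defect did to these genes at each age, what age did in each genotype, and what DR did.

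Basement membranes are thin sheets of matrix that lie under the endothelium and wrap each vascular smooth muscle cell. Their network is made of type IV collagen and laminin, joined by nidogens and the heparan sulfate proteoglycan perlecan. Collagens XV and XVIII sit at the outer face of these sheets and release the fragments restin and endostatin. Type VIII collagen is a short-chain network collagen of the vessel wall and of Descemet's membrane, known in arteries for its rise after injury.

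Col4a1 and Col4a2, whose chains assemble with each other, lie head to head. In the RefSeq annotation of GRCm38.p6 their starts overlap by 22 bases at chr8:11312805-11312826, where Col4a2 runs on the plus strand and Col4a1 on the minus strand. That stretch is shown on the plus strand because both transcripts begin within it, and 16 of its bases are G or C.
Col4a1 and Col4a2 shared start: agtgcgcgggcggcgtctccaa
The bases before the starts of Col8a1 and Col8a2 are shown because these 2 genes code for the type VIII chains. They are the 250 bases upstream of Col8a1 at chr16:57754738-57754987, minus strand, and of Col8a2 at chr4:126286544-126286793, plus strand, in the same build. Capitals mark the GC box, GGGCGG on either strand.
Col8a1: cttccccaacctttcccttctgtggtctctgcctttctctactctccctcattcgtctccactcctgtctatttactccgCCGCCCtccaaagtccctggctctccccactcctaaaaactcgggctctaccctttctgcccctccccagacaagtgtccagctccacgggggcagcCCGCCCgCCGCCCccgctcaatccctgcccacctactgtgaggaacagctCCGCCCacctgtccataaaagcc
Col8a2: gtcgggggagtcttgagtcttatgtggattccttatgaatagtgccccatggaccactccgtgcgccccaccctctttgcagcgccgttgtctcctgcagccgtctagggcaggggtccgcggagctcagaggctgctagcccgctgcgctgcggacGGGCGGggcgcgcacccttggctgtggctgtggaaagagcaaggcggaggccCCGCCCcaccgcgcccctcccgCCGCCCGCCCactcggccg
Each holds 4 GC boxes, the last 2 of Col8a2 overlapping, and the letters are 60.8% G or C before Col8a1 and 70.0% before Col8a2. Over the 10 starts that RefSeq gives for 9 of the genes (Nid2 has no entry and Col18a1 has 2 starts), 7 held a GC box, against 32.7% of 32851 mouse starts, and 5 held CCAAT, against 33.8%. TATAAA was found before none of them and before 12.4% of all starts, TGANTCA (the AP-1 site) before none and 6.75%, and the CArG box of smooth muscle genes before none and 1.47%, all counted on both strands. These are matches of letters only.

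Depth over the 28 libraries ran from 921167 to 9616382 counts (median 3256708), and a 29th, labelled WT at 22 weeks on AL, with 400410 counts, was left out. At 22 weeks depth differed by genotype without overlap, from 3903589 to 9616382 counts in WT and from 1294980 to 3855444 in Ercc1Δ/− mice on AL, and from 2660422 to 6124471 and from 921167 to 2572523 on DR. Reads that did not map uniquely were 3.66% to 4.46% of the total in WT and 5.19% to 5.74% in Ercc1Δ/− mice on AL, and reads outside genes were 7.48% to 9.09% and 9.34% to 10.08% on DR, again without overlap. With every library thinned to 921167 counts, the numbers of these genes called between genotypes at 22 weeks were as large as those given below, 6 of 9 on each diet; the part of the mapping shares was not tested. Ercc1 itself averaged 101.5 ± 33.7 normalized counts in WT and 41.8 ± 9.17 in Ercc1Δ/− at 6 weeks (SD, n = 5 each), with 1 WT library at 52.2 inside the Ercc1Δ/− range, and the genotypes did not overlap at 22 weeks on either diet. The library left out had 3 counts of Ercc1, or 29.9 normalized counts (95% exact Poisson interval 6.17 to 87.4, counting error only). The value is below every WT library analysed, against its label. The interval reaches into the range of both genotypes, so the value does not settle the genotype. A normalized count is a count divided by the library's TMM-scaled depth and brought to 3683502 counts. Smooth muscle markers were abundant in every library, and their sum moved with genotype. The 8 smooth muscle markers together ran from 32400 to 38600 CPM (counts scaled to a library total, TMM-adjusted) in WT and from 17000 to 26300 in Ercc1Δ/− at 22 weeks on AL, and from 33500 to 43400 and 23800 to 25700 on DR. The 8 macrophage markers ran from 180 to 263 CPM in WT and from 358 to 660 in Ercc1Δ/− at 22 weeks on AL, and on DR from 113 to 191 and from 219 to 419. The 5 pericyte markers ran from 1830 to 2510 and from 1280 to 1440 CPM on AL, whereas the 10 endothelial markers overlapped, at 966 to 1380 and 768 to 1270 CPM. On DR the endothelial sums overlapped as well, with a ratio of medians of 1.48. Of the 10 markers 4 were called higher in Ercc1Δ/− mice, against 13.0% of all genes called in either direction. The sums of 8 cardiomyocyte markers did not overlap on DR, at 141 to 244 CPM in WT and 259 to 616 in Ercc1Δ/− mice. No marker of the smooth muscle, macrophage, pericyte and endothelial lists was at 0 throughout a group. In the cardiomyocyte list 1 of 8 markers was, in WT at 6 weeks or on DR and in 22-week Ercc1Δ/− mice on each diet. The 6 lymphocyte markers, none of which passed the filter, summed to 12.4 CPM or less in every library, but at 22 weeks on AL the genotypes did not overlap, at 0.527 to 1.38 CPM in WT and 2.57 to 5.3 in Ercc1Δ/− mice. The 8 fibroblast markers overlapped between the genotypes at each age and diet. Brown adipocyte sums overlapped too, but at 22 weeks had Ercc1Δ/− to WT ratios of medians of 3.5 on AL and 3.23 on DR. Of 5 tested brown adipocyte markers 2 were called higher on each diet, against 12.0% and 13.0% of all genes called in either direction. For the adipocyte sums these ratios were 1.57 and 1.53, with overlap and no marker called. The part of these shifts in the results below was not tested, and in bulk tissue fewer cells of a type and less RNA per cell cannot be told apart.

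**Figure D1:**
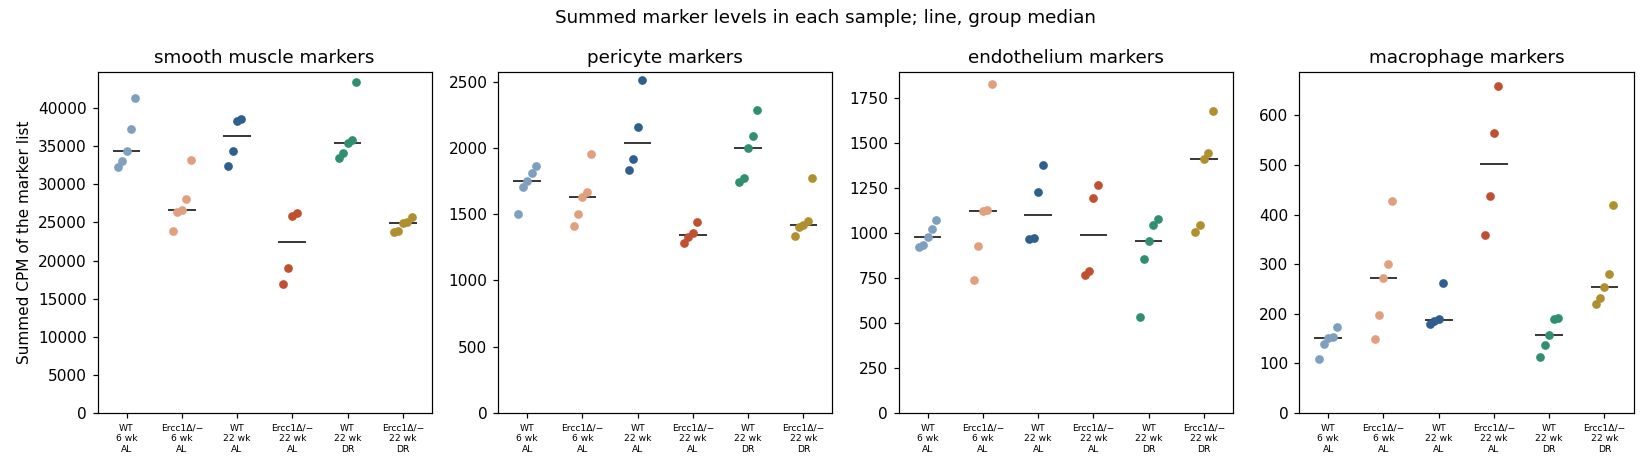
Summed CPM of the smooth muscle, pericyte, endothelium and macrophage marker lists on the y axes, with each point a library, the line the group median and the 6 groups on the x axes. At 22 weeks the Ercc1Δ/− samples lie below the WT samples for smooth muscle and above them for macrophages on both diets.

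The genes differed widely in level when counts were divided by exonic length. Reads were counted over the entire gene, introns included, so this scale can overstate genes with many intronic reads, and the order is approximate. Col18a1 was highest at 305.5 CPM per kb (mean of the 6 group means), followed by Col4a1 at 221.4, Col4a2 at 173.5, Col15a1 at 139.5, Hspg2 at 128.8, Col4a5 at 54.7, Nid1 at 25.1, Col8a1 at 3.81, Nid2 at 3.16 and Col8a2 at 0.623. Col15a1 was above Hspg2 in 13 of 28 libraries and Col8a1 above Nid2 in 14 of 28, so neither pair can be ordered. The type VIII collagens were thus minor transcripts beside the basement membrane collagens, and Col8a2 was close to the limit of detection, with 0 to 42 counts in a library.

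**Figure D2:**
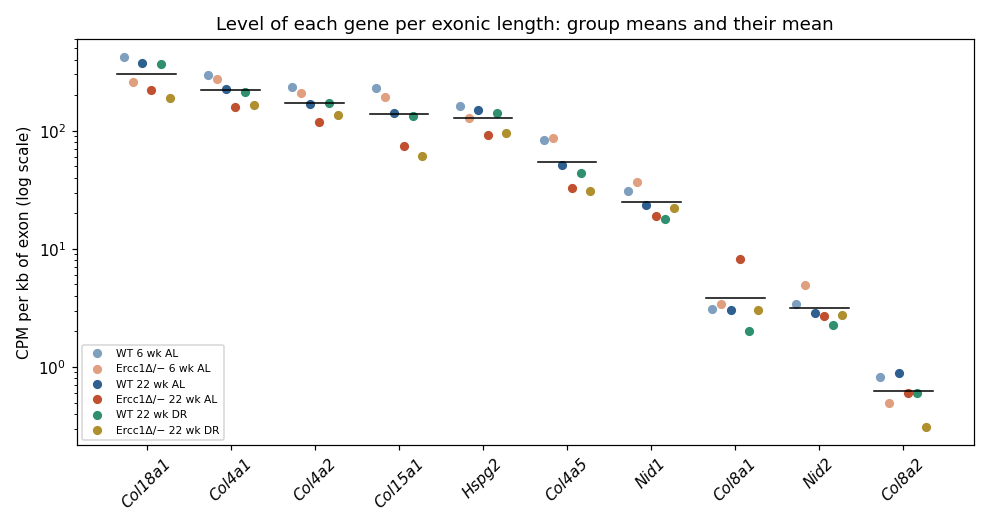
CPM per kb of exon on a log y axis for the 10 genes on the x axis, ordered by level; points are the means of the 6 groups and the line is their mean. Col18a1 sits highest at 305.5 and Col8a2 lowest at 0.623, and Col8a1 is the gene whose 22-week AL Ercc1Δ/− point lies farthest above the rest.

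The repair defect changed 1 of the 9 genes at 6 weeks, against 1.70% of all genes tested called in either direction and 1.13% called lower. This was Col18a1, the source of endostatin. Its normalized counts were 8188, 10050, 10990, 11400 and 13870 in WT and 5104, 6102, 7313, 7544 and 7817 in Ercc1Δ/− mice. Every Ercc1Δ/− sample lay below every WT sample. The log2 fold change was −0.66 ± 0.12 (SE; edgeR quasi-likelihood test, Benjamini-Hochberg adjusted p = 0.00507). Hspg2, the perlecan core protein, had a log2 fold change of −0.33 ± 0.11 and Nid2, a linker of laminin to type IV collagen, one of 0.48 ± 0.16, and neither passed (adjusted p = 0.156 and 0.173). The type IV chains stood at −0.09 for Col4a1, −0.16 for Col4a2 and 0.05 for Col4a5 on the log2 scale. Without Ercc1Δ/− replicate 008, Hspg2 passed as well (−0.47, adjusted p = 0.0187), which made 2 genes. Col8a1 stood at 89.2 ± 20.9 in WT and 98.3 ± 17.1 in Ercc1Δ/− mice, with overlapping ranges.

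At 22 weeks on AL, 6 of the 9 genes were lower in Ercc1Δ/− mice and none higher, against 12.0% of all genes called in either direction and 6.16% called lower. These were Col4a1, Col4a2, Col4a5, Col15a1, Col18a1 and Hspg2, and in each of them no Ercc1Δ/− sample reached the lowest WT sample, a separation seen in 18.6% of all genes tested. The median log2 fold change of the 9 was −0.50, and that of all genes 0.03.

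Col4a1, which codes for the α1 chain of the common type IV network, had 5854, 5968, 6186 and 6656 normalized counts in WT and 3924, 4332, 4504 and 4607 in Ercc1Δ/− mice. The gap between the groups was wider than the range within either of them. The log2 fold change was −0.48 ± 0.11 (edgeR adjusted p = 0.00436). Its partner Col4a2 changed alike, at −0.45 ± 0.11 (adjusted p = 0.0106). Col4a5, the X-linked chain that is mutated in Alport syndrome, had 1644, 1711, 1711 and 1971 counts in WT and 982.1, 1150, 1167 and 1172 in Ercc1Δ/− mice. All 4 WT samples were above all 4 Ercc1Δ/− samples, and the log2 fold change was −0.65 ± 0.10 (adjusted p = 0.000174).

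Col15a1, the restin collagen, showed the largest drop of the 9 at this age. It had 3265, 3660, 3748 and 3933 counts in WT and 1576, 1763, 1780 and 2493 in Ercc1Δ/− mice. Even the highest Ercc1Δ/− sample was well under the lowest WT sample. The log2 fold change was −0.90 ± 0.14 (edgeR adjusted p = 0.000221). Col18a1 was at −0.72 ± 0.13 (adjusted p = 0.000742) and Hspg2 at −0.66 ± 0.13 (adjusted p = 0.00118). Both differed by sex among the Ercc1Δ/− mice without overlap, Col18a1 at 4504 and 4653 in females and 6368 and 7441 in males, and Hspg2 at 4451 and 4808 against 6200 and 6341. So did Col4a1, Col4a2 and Col15a1, lower in females, and Nid2, higher in females. Smooth muscle marker sums split too, at 16960 and 19000 CPM in females and 25790 and 26260 in males. Endothelial, macrophage, adipocyte and brown adipocyte sums were higher in the females. The females were also the deeper libraries, at 3351172 and 3855444 counts against 1294980 and 1433979 in the males. Sex and depth cannot be told apart in this group. The split in this group rests on 2 mice of each sex. In WT mice on DR the females were also below the males without overlap for Col18a1, Hspg2, Col15a1 and Col4a2, but not for Col4a1. Col18a1 stood there at 7906 and 8179 in 2 females and 9906 to 10900 in 3 males. In Ercc1Δ/− mice at 6 weeks Col18a1 and Hspg2 overlapped by sex. Nid1, the main nidogen here, averaged 651.0 ± 67.0 in WT and 523.9 ± 85.0 in Ercc1Δ/− mice at 22 weeks on AL. Its ranges overlapped, and it did not pass (edgeR adjusted p = 0.367). Nid2 had a log2 fold change of 0.01 ± 0.20, and Col8a2 one of −0.50 ± 0.33 (adjusted p = 0.988 and 0.363). Adding the shallow library labelled WT lifted the edgeR adjusted p of Col4a2 to 0.166 and left 5 genes called. The Ercc1 value of that library, from 3 counts, is below every analysed WT library, but its interval reaches into the range of both genotypes.

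**Figure D3:**
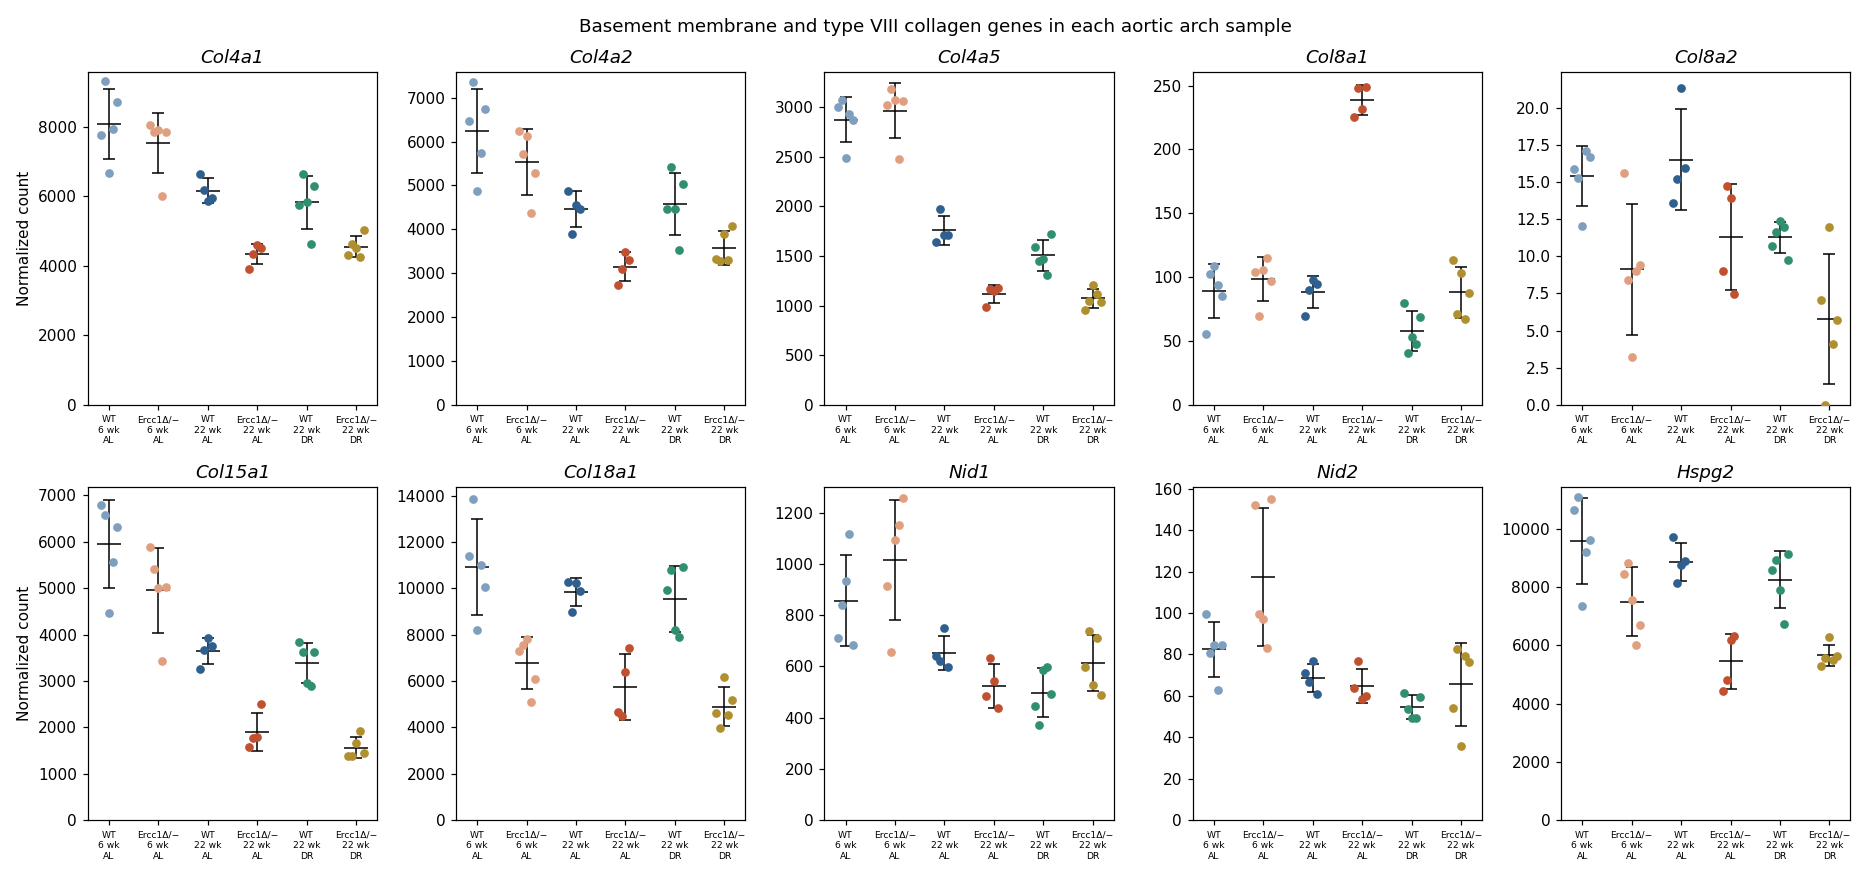
Normalized counts on the y axes for the 10 genes, 1 panel each, with points for single libraries, the horizontal mark for the group mean, whiskers for the SD and the 6 groups on the x axes. Col8a1 in 22-week AL Ercc1Δ/− mice, at 225.5 to 248.8, stands above every other group, while Col4a1, Col4a5 and Col15a1 step down at 22 weeks and again with genotype.

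Col8a1 was the exception that defined the list. It had 69.9, 90.3, 94.6 and 97.4 normalized counts in 22-week AL WT mice and 225.5, 231.6, 248.0 and 248.8 in Ercc1Δ/− mice, a log2 fold change of 1.42 ± 0.17 (2.68-fold). The 4 Ercc1Δ/− values were tight and lay far above all other analysed libraries, of which the highest was 114.8. Males and females of this group averaged 240.2 and 236.8 (n = 2 each) with overlapping ranges. In Ercc1Δ/− mice on DR the sexes did not overlap, at 87.6 to 113.0 in 3 males and 66.8 and 70.8 in 2 females. The other type VIII chain, Col8a2, averaged 16.5 ± 3.37 in WT and 11.3 ± 3.59 in Ercc1Δ/− mice at 22 weeks on AL. No rise of the paired chain was measured, but its values rest on 3 to 14 counts in these Ercc1Δ/− libraries.

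Age was compared within each genotype on AL, with the same 22-week mice as in the genotype comparison. In WT mice 3 of the 9 genes were lower at 22 than at 6 weeks, all of them collagens, against 0.235% of all genes tested called in either direction and 0.138% called lower. Col4a5 fell by 0.71 ± 0.09 on the log2 scale (edgeR adjusted p = 0.000947), Col15a1 by 0.73 ± 0.14 (adjusted p = 0.0166) and Col4a2 by 0.52 ± 0.11 (adjusted p = 0.0374). Col4a1 was at −0.40 ± 0.10 and did not overlap between the ages, but missed the threshold (adjusted p = 0.0932); with DESeq2 it passed, for 4 genes. Hspg2 and Col18a1 were at −0.14 and −0.18. The counts rested on few mice. Without any of WT replicates 001 and 009 at 6 weeks and 012 and 025 at 22 weeks, or with no term for sex, only Col4a5 remained called. Col8a1 had a log2 fold change of 0.06 ± 0.17 with age in WT mice.

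In Ercc1Δ/− mice 7 of the 9 genes were lower at 22 weeks, against 4.69% of all genes tested called in either direction and 2.57% called lower, with a median log2 fold change of −0.79 against 0.01 for all genes. Col4a5 had 2475, 3017, 3065, 3075 and 3177 normalized counts at 6 weeks and the 982.1 to 1172 given above at 22 weeks. No 22-week sample reached even the lowest 6-week sample. It fell by 1.41 ± 0.10 on the log2 scale (edgeR adjusted p = 1.09e-08). Col15a1 had 3433, 4997, 5030, 5407 and 5888 counts at 6 weeks against 1576 to 2493 later. It fell by 1.37 ± 0.14 (adjusted p = 1.18e-06), also with no overlap.

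Col4a1 and Col4a2 fell by 0.79 ± 0.10 and 0.80 ± 0.11 (edgeR adjusted p = 2.51e-05 and 4.3e-05). Both nidogens fell, Nid1 from a mean of 1015 ± 235 (n = 5) to 523.9 ± 85.0 (n = 4), or by 0.94 ± 0.18 (edgeR adjusted p = 0.00336), and Nid2 by 0.79 ± 0.19 (adjusted p = 0.0133). The Nid2 gene overlaps Rtraf on the opposite strand, which had 297% of its counts in all, so its values are less certain. Hspg2 fell by 0.46 ± 0.12 (adjusted p = 0.0237) with overlapping ranges, and lost its call without replicate 002 or 008 at 6 weeks or 004 or 005 at 22 weeks (adjusted p = 0.0603 to 0.118). When only the compared groups were fitted, Nid2 and Hspg2 missed the threshold (adjusted p = 0.0613 and 0.0805). Col18a1, already low at 6 weeks, was at −0.24 ± 0.12 (adjusted p = 0.326). Col8a1 went the other way, from 98.3 ± 17.1 to 238.5 ± 11.8, a log2 fold change of 1.28 ± 0.16. Markers of cardiomyocytes did not overlap between the ages in either genotype, summing to 86.5 to 131 CPM at 6 and 144 to 299 at 22 weeks in WT mice and to 79.8 to 212 and 214 to 386 in Ercc1Δ/− mice, and the 5 mesothelial markers went from 17.5 to 135 CPM up to 145 to 240 in Ercc1Δ/− mice. Macrophage sums went from 109 to 173 CPM up to 180 to 263 in WT mice, without overlap. In Ercc1Δ/− mice they went from 150 to 428 up to 358 to 660. There 3 of 7 tested markers were called higher, against 4.69% of all genes called in either direction. The part of these shifts in the age results was not tested.

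The 2 age comparisons share no mice, and their difference was tested as a genotype by age interaction. Only Col4a5 passed among the 9, against 0.842% of all genes tested. Its fall with age was the larger in the mutant, with an interaction of −0.70 ± 0.13 on the log2 scale (edgeR adjusted p = 0.00981). The call was lost without WT replicate 018 at 22 weeks (−0.59, adjusted p = 0.053), and Col15a1 joined it without Ercc1Δ/− replicate 023 at 6 weeks (adjusted p = 0.0483). Col4a1 was at −0.39 ± 0.14 and Col15a1 at −0.64 ± 0.19 in the interaction (adjusted p = 0.266 and 0.139). The interaction of Col8a1, given without a test, was 1.22 ± 0.24.

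**Figure D4:**
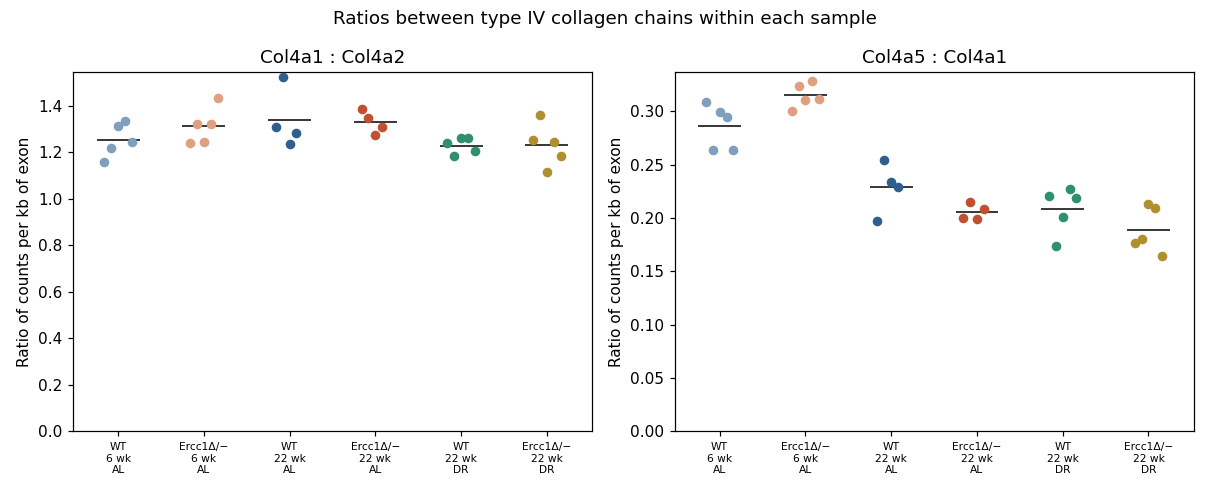
Within-library ratios of counts per kb of exon on the y axes, Col4a1 to Col4a2 at left and Col4a5 to Col4a1 at right, by group on the x axes; points are libraries and lines are group means. The first ratio stays between 1.12 and 1.53, and the second is above 0.263 in every 6-week library and below 0.255 in every 22-week library.

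Ratios within a library do not depend on its depth. Col4a1 to Col4a2, per kb of exon, had group means between 1.23 and 1.34. Col4a5 to Col4a1 averaged 0.286 ± 0.021 in WT and 0.315 ± 0.011 in Ercc1Δ/− mice at 6 weeks (n = 5 each), and 0.229 ± 0.024 and 0.206 ± 0.008 at 22 weeks on AL (n = 4 each). On DR it was 0.208 ± 0.021 and 0.189 ± 0.021 (n = 5 each). Relative to Col4a1, the α5 chain transcript was thus lower in each of the 18 older libraries than in any of the 10 younger ones, in both genotypes and on both diets.

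In the comparison of DR with AL, few of these genes passed. In WT mice at 22 weeks 1 of the 9 passed, being lower, against 1.28% of all genes tested called in either direction and 0.939% called lower. Nid1 had 596.3, 619.5, 640.3 and 747.7 normalized counts on AL and 370.1, 443.7, 492.1, 585.2 and 595.8 on DR. The groups just missed each other. The log2 fold change was −0.45 ± 0.11 (edgeR adjusted p = 0.0453), and it passed no longer under 5 of the 8 other ways of fitting or without any of 8 of the 9 mice (adjusted p up to 0.353). Col4a1, Col4a2, Col15a1, Col18a1 and Hspg2 had log2 fold changes between −0.10 and 0.07 in WT mice. Col4a5 was at −0.22 ± 0.09, Nid2 at −0.32 ± 0.16 and Col8a2 at −0.54 ± 0.26 (adjusted p = 0.279, 0.407 and 0.378), the last without overlap between the diets. Of the 9, 3 had an unadjusted p under 0.05.

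In Ercc1Δ/− mice on DR none of the 9 passed in edgeR or in DESeq2, against 1.64% of all genes tested, and 3 had an unadjusted p under 0.05 in edgeR. These were Col18a1 (−0.24 ± 0.09, adjusted p = 0.198), Col15a1 (−0.28 ± 0.12, adjusted p = 0.265) and Nid1 (0.25 ± 0.12, adjusted p = 0.317). Col4a1 had 4264, 4323, 4527, 4632 and 5036 counts on DR, across the 3924 to 4607 of AL mice. Without DR replicate 022 Col15a1 passed (−0.41, adjusted p = 0.0454). Col8a1, by contrast, had 66.8, 70.8, 87.6, 103.2 and 113.0 counts on DR against 225.5 to 248.8 on AL. Every DR sample was below every AL sample, at a log2 fold change of −1.48 ± 0.16 (0.359-fold). In WT mice Col8a1 averaged 57.9 ± 15.9 on DR and 88.0 ± 12.5 on AL, or −0.56 ± 0.15. Macrophage markers moved in the same direction in Ercc1Δ/− mice. With DR 5 of 7 tested ones were called lower (median log2 fold change −0.98), against 1.64% of all genes called in either direction. The macrophage sum had a DR to AL ratio of medians of 0.505 with overlapping ranges. The smooth muscle sums overlapped as well, with 1 of 8 markers called higher. The part of these markers in the difference of Col8a1 was not tested.

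No gene of the 9 passed in the genotype by diet interaction, against 0.0971% of all genes tested. The only unadjusted p under 0.05 was that of Nid1, at 0.70 ± 0.17 on the log2 scale (edgeR adjusted p = 0.13), which had opposite signs in the genotypes; it passed with DESeq2 (adjusted p = 0.0419) and without the filter on low counts (adjusted p = 0.0119). For Col8a1 the interaction was −0.92 ± 0.23, not tested.

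Between Ercc1Δ/− and WT mice that were both on DR, 6 of the 9 genes were lower and none higher, against 13.0% of all genes tested and 7.03% called lower. By symbol they are the 6 that were lower on AL. Col18a1 had 7906, 8179, 9906, 10770 and 10900 counts in WT and 3955, 4547, 4607, 5181 and 6192 in Ercc1Δ/− mice. The groups were apart, at −0.96 ± 0.09 (edgeR adjusted p = 1.2e-07). Col15a1 had 2888, 2953, 3614, 3621 and 3848 counts in WT and 1379, 1385, 1456, 1667 and 1917 in Ercc1Δ/− mice. Here too no sample overlapped, at −1.1 ± 0.11 (adjusted p = 8.16e-07). Hspg2 was at −0.54 ± 0.08 (adjusted p = 7.68e-05) and Col4a5 at −0.49 ± 0.09 (adjusted p = 0.00044), again without overlap.

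Col4a1 and Col4a2, at −0.35 ± 0.08 each (edgeR adjusted p = 0.00488 and 0.00499), passed with overlapping ranges. With the shallow library labelled WT added, Col4a2 no longer passed (adjusted p = 0.053). The nidogens had positive values on DR, 0.29 ± 0.11 for Nid1 and 0.26 ± 0.18 for Nid2, and did not pass (adjusted p = 0.0786 and 0.39); Nid1 passed when only the compared groups were fitted (adjusted p = 0.0478). Col8a2 averaged 11.3 ± 1.07 in WT and 5.77 ± 4.37 in Ercc1Δ/− mice, with 1 library at 0 (adjusted p = 0.179). Col8a1 averaged 57.9 ± 15.9 and 88.3 ± 20.0, with overlapping ranges and a log2 fold change of 0.55 ± 0.17.

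**Figure D5:**
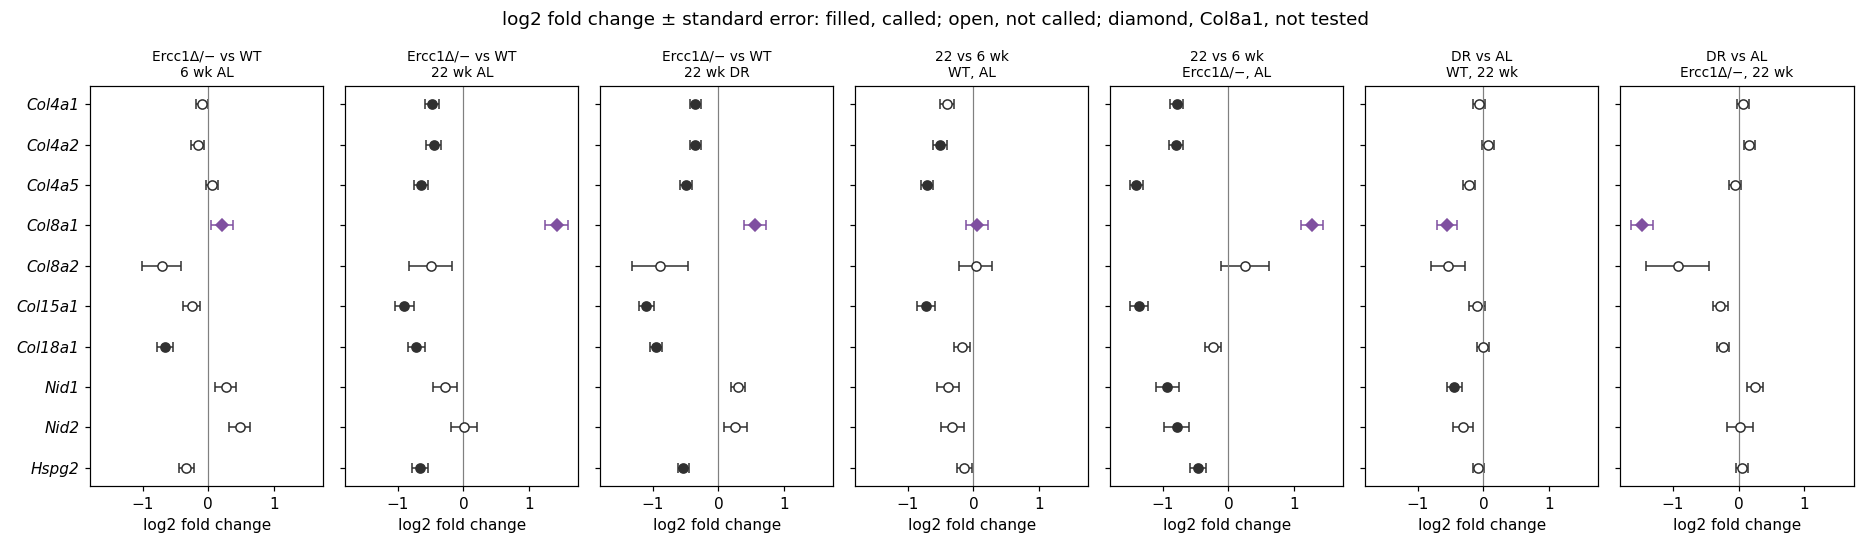
log2 fold changes on the x axes for the 10 genes, 1 panel for each of 7 comparisons, with whiskers for the standard error; filled circles passed the test, open circles did not, and the diamond is Col8a1, which was not tested. At 22 weeks on AL 6 of 9 circles are filled at negative values, while Col8a1 lies at 1.42, and at −1.48 in the panel for DR in Ercc1Δ/− mice.

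Other genes of the pathway were read from fixed lists. Of 18 tested other components of the basement membrane, laminins and minor type IV chains among them, 1 was lower at 6 weeks, 6 were lower and none higher at 22 weeks on AL, and 9 were lower and 2 higher on DR in Ercc1Δ/− mice. Of all genes tested 1.13%, 6.16% and 7.03% were called lower in these comparisons, and 13.0% in either direction on DR. Lama4, the laminin α4 chain of vessels, was lower at 22 weeks on AL (−0.82 ± 0.11, edgeR adjusted p = 4.71e-05), and nephronectin (Npnt), an integrin ligand, was lower on DR (−0.64 ± 0.08, adjusted p = 2.99e-06). Col4a4 was higher on DR (0.53 ± 0.13, adjusted p = 0.00652). With age 7 were lower in Ercc1Δ/− and 1 in WT mice, against 2.57% and 0.138% of all genes. The latter was Sparc, a binder of type IV collagen, which had a log2 fold change of −1.1 ± 0.12 in WT and of −1.67 ± 0.12 in Ercc1Δ/− mice (adjusted p = 7.64e-05 and 2.1e-08). With DR, Smoc1 was the one gene to pass, in WT mice (0.42 ± 0.09, adjusted p = 0.0145).

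Of 15 tested genes for collagen folding and crosslinking, none passed in edgeR at 6 weeks (4 had an unadjusted p under 0.05) and 6 were lower at 22 weeks in Ercc1Δ/− mice on each diet, against 6.16% of all genes on AL and 7.03% on DR. Serpinh1, the collagen chaperone HSP47, was lower on AL (−0.93 ± 0.12, edgeR adjusted p = 1.96e-05), and its genotype by age interaction was −0.95 ± 0.16 (adjusted p = 0.00398). P4ha2, a prolyl hydroxylase, was lower on DR (−0.66 ± 0.11, adjusted p = 0.000176). Loxl2, a crosslinking enzyme of type IV collagen, fell by 1.44 ± 0.12 with age in Ercc1Δ/− mice (edgeR adjusted p = 1.19e-07). It was among 7 that fell there, against 2.57% of all genes called lower. Pxdn, the peroxidase that makes the sulfilimine bond of type IV collagen, was lower with DR in WT mice (−0.48 ± 0.12, adjusted p = 0.037).

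Of 10 tested receptors, 3 were lower in Ercc1Δ/− mice at 6 weeks, 3 at 22 weeks on AL, and 6 were lower and 1 higher on DR, beside the same 1.13%, 6.16% and 7.03% of all genes called lower. Bcam, a laminin α5 receptor, was lower in all 3 comparisons, at −0.83 ± 0.08, −1.15 ± 0.10 and −1.31 ± 0.10 on the log2 scale (edgeR adjusted p = 1.73e-05, 7.25e-08 and 4.96e-09). None of the 10 passed with age or diet by edgeR in either genotype, and 1 or 2 had an unadjusted p under 0.05 in each of these comparisons.

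Among fibrillar collagens 8 of 11 listed were tested. At 6 weeks 1 was higher in Ercc1Δ/− mice and none lower. At 22 weeks 4 were lower and none higher on AL, and 2 were lower and 1 higher on DR. Of all genes tested 1.13%, 6.16% and 7.03% were called lower in these comparisons, and 1.70%, 12.0% and 13.0% in either direction. The higher ones were Col27a1 at 6 weeks (0.64 ± 0.12, edgeR adjusted p = 0.00582) and Col5a3 on DR (0.82 ± 0.26, adjusted p = 0.042). With age 5 fell in Ercc1Δ/− and 3 in WT mice, against 2.57% and 0.138% of all genes called lower. Col3a1, the type III chain, fell by 2.25 ± 0.18 with age in Ercc1Δ/− mice (edgeR adjusted p = 1.19e-07), against 1.41 for Col4a5. Col1a1 was lower with DR in WT mice (−0.70 ± 0.13, edgeR adjusted p = 0.0061). There 3 fibrillar genes were called lower, against 0.939% of all genes. Of 13 other collagens tested, 5 were lower at 22 weeks on AL, beside the same 6.16% of all genes. Col6a3 of the microfibrillar type VI network was among them (−1.0 ± 0.15, edgeR adjusted p = 0.000103). On DR 3 were lower and 1 higher, beside 7.03% of all genes called lower and 13.0% in either direction. No member of either list was called higher in Ercc1Δ/− than in WT mice at 22 weeks on AL.

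The genes whose profile over the 28 libraries was closest to that of Col4a1 were sought among all genes tested, by the root mean square difference of centred log2 CPM. Col4a2 was the nearest (0.092), followed by Agrn (0.161), which codes for the basement membrane proteoglycan agrin, P3h1 (0.169), a collagen prolyl 3-hydroxylase, Cercam (0.181) and Arhgef7 (0.182). Hspg2 ranked 26, Col4a5 345, and Col18a1 1518, against an SD of Col4a1 itself of 0.359. For Col8a1, with an SD of 0.649, the nearest were Lbp (0.357), the lipopolysaccharide-binding protein, Mgp (0.366), the matrix inhibitor of calcification, B2m (0.413), the light chain of class I MHC, Phf11d (0.433) and Rgs10 (0.435). No other gene of the 10 was closer to Col8a1 than Nid2, at 0.772 and rank 8762. Col8a2 stood at 0.927 and rank 11329. The list was selected on Col8a1 running against most collagens, so distances between it and the collagens follow in part from that choice. With a median count of 9.5, Col8a2 also carries much counting error in its distance. The measure is a description over libraries that share groups and depth.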

How the data were processed

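Aortic arch RNA of 29 mice was measured. The deposited values are raw counts per gene, made by the authors with bcl2fastq 2.20, UMI-tools 1.1.2, fastp, STAR 2.7.10a and HTSeq 2.0.2 on GRCm39 (submitters' processing notes). Reads were deduplicated by UMI and counted over the gene body; the strand setting was not given in the sources used here. Symbols were matched for 56017 of 56748 Ensembl genes from GENCODE vM39, a later release. The filter kept genes that exceeded 10 counts in over 10 of the 28 libraries. Groups came from the labels, and the labelled sex matched in 29 of 29 libraries. No column was left unused.

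Separate fits, each of 18 libraries, covered AL mice and 22-week mice: edgeR 4.0.16 (R 4.3.3), TMM factors from 0.935 to 1.07, quasi-likelihood test with group and sex, Benjamini-Hochberg adjustment over 12353 genes. A gene was called at an adjusted p of 0.05 or less and a 1.2-fold change, interactions by adjusted p alone. The authors used DESeq2 1.34.0; here DESeq2 1.42.0 was an alternative, beside RLE factors, no filter, no sex term, other sample sets, thinning and leaving out each mouse. Tested on simulated data for the 22-week AL contrast, 180 of 200 genes changed 3-fold were recovered and 13 of the other genes were called. The changes of the 9 genes in that contrast were smaller than 3-fold, and recovery at such sizes was not simulated. Each library is a separate mouse, and p-values measure the spread between mice. Replicates are named by label number. The 10 genes and all lists were chosen with earlier results of these data known. Named genes were the 10, the gene with the smallest p in each direction per list and comparison (a selection of these is printed), and the 5 nearest profiles of Col4a1 and Col8a1. RefSeq promoters are of GRCm38.p6, searched as 250 bases upstream; no coordinates were carried between builds. CPM per kb used the exonic length with a prior count of 2 only for log values. Of overlapping genes other than Rtraf, none had more than 0.341% of a member's counts; Col4a1 and Col4a2 overlap each other at their starts.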

Additional observations from a re-analysis of the deposited data

Results flagged for a closer look

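Over the 60 combinations of gene and group, 3 values, from replicates 023 and 004, lay apart from the rest of their group by Dixon's criterion. Chance gives this in about 1 in 20 groups, so 3 of 60 is no more than chance gives. In Ercc1Δ/− mice at 6 weeks replicate 023 had 6019 normalized counts of Col4a1 against 7848 in the next lowest library, and 2475 of Col4a5 against 3017. In Ercc1Δ/− mice at 22 weeks on AL replicate 004 had 982.1 normalized counts of Col4a5 against 1150. The call of Col4a5 with age in Ercc1Δ/− mice held without either of these libraries. Its call with genotype at 22 weeks on AL held without replicate 004 and was not fitted without replicate 023. The effect of age on Col4a5 differed between the genotypes, with an interaction of −0.70 on the log2 scale (edgeR adjusted p = 0.00981).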

How the results depend on the processing

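Of the 9 counts of genes called, those for genotype at 22 weeks on AL, genotype on DR and age in Ercc1Δ/− mice stayed within 1.5 times the reported 6, 6 and 7 under every alternative, at 5 to 6, 5 to 7 and 5 to 7. The count for age in WT mice was 1 with no sex term, and from 1 to 3 when mice were left out. That for DR in WT mice was 0 with the shallow library labelled WT added, with no sex term, with all 6 groups fitted, with only the compared groups fitted and with thinning to 921167 counts, and from 0 to 1 without single mice. The genotype by diet interaction gave 1 with DESeq2 and with no filter. Leaving out mice gave 1 to 2 for genotype at 6 weeks, 0 to 2 for the genotype by age interaction and 0 to 1 for DR in Ercc1Δ/− mice. The signs that turned belonged to uncalled values near 0, except for the imprecise genotype by age interaction of Col8a2 (0.22 ± 0.45). Nid2 with genotype at 22 weeks on AL, 0.01 as reported, was −0.011 with DESeq2, −0.0049 with RLE factors, −0.059 without the filter, −0.0033 with the shallow library, −0.049 with no sex term, −0.016 with all groups, −0.076 with only the compared groups, −0.080 with thinning, and −0.13 to 0.074 without single mice. With DR in Ercc1Δ/− mice Nid2 was −0.021 with all groups and −0.10 to 0.15 without single mice, and Hspg2 −0.0030 to 0.10. With the shallow library the Col18a1 age interaction was 0.053, Col4a1 and Col18a1 with DR in WT were 0.017 and 0.097, and the Col4a2 diet interaction was −0.030. Col18a1 with DR in WT was 0.028 with thinning and −0.038 to 0.063 without single mice, its age interaction −0.16 to 0.083, Col4a5 at 6 weeks −0.0017 to 0.094, Col8a2 with age in WT −0.068 to 0.12 and its age interaction −0.0082 to 0.48. The cause of these changes was not tested. Col8a1 kept its direction in each comparison with a change over 1.2-fold. No paired analysis was possible because each mouse gave 1 library and replicate numbers are not shared between groups. The lowest depth, 921167 counts, limits Col8a2, Nid2 and Col8a1 most.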

Other observations

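The shallow library labelled WT at 22 weeks on AL, which was left out, had 29.9 normalized counts of Ercc1, below every analysed WT library and within the range of Ercc1Δ/− libraries. It had 3989 normalized counts of Col4a1, within the 3924 to 4607 of Ercc1Δ/− mice of that age and diet, 5196 of Col18a1, 6014 of Hspg2 and 119.7 of Col8a1. Its Col4a1, Col18a1 and Hspg2 lie below every WT library of its group, and its Col8a1 lies above those libraries and below all Ercc1Δ/− libraries of that age and diet. The Ercc1 value rests on 3 counts and the Col8a1 value on 12, so both carry much counting error. The library had 6 counts of Col8a2 and 5 of Nid2. WT replicate 001 at 6 weeks had 1151 CPM of summed Schwann cell markers, against a group median of 61.7, and the group's count of genes called with age is given without it in the report.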
